A study of Rattus norvegicus with 6 samples.

Results

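Transcripts of 9 chaperones were followed in nerve tissue that had regrown across a sciatic nerve defect in rats. The genes were chosen by name: Hspa5, Hspa8, Hsph1, Dnajb1, Hsp90aa1, Hsp90ab1, Hspb1, Hspb8 and Cryab. These symbols stand at 13 of the 23091 entries of the deposited table. Messenger RNA was sequenced from male wild-type Sprague-Dawley rats in 2 groups of 3 libraries. In the GDNF-Gel/HA-Mg group (implant 1 to implant 3 here) a conduit of this material, whose name includes glial cell line-derived neurotrophic factor (GDNF), was placed in the defect. In the NC group (NC 1 to NC 3) the defect was left without an implant and the wound was closed. Every library therefore comes from an injured nerve, and no uninjured nerve was analysed here. The age of the rats, the time after surgery and whether each library is 1 animal are not given in the labels, and a p-value here reflects the spread of these 6 libraries alone, which may be technical.

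Heat shock proteins are chaperones that bind unfolded or newly made proteins and keep them from clumping. HSP70 proteins bind and release their clients in an ATP cycle that J-domain proteins start and nucleotide exchange factors end, and HSP90 proteins take over clients such as kinases and steroid receptors. Small heat shock proteins form large oligomers that hold unfolding proteins without using ATP. In the heat shock response the factor HSF1 binds heat shock elements in promoters, and in the unfolded protein response of the endoplasmic reticulum (ER) promoters are read through ER stress elements. In peripheral nerve the small heat shock proteins are of interest because variants of human HSPB1 and HSPB8 cause inherited motor and sensorimotor neuropathies, and because alpha B-crystallin is made by myelinating Schwann cells.

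The promoters of 4 genes are shown because they hold the elements of these responses and belong to genes with different patterns over the libraries. They are from RefSeq (rat build GRCr8), run from 250 bases before to 50 after the annotated start site and are written 5′ to 3′ along the gene. Capitals mark matches to GAANNTTC, to TTCNNGAA or to the ER stress element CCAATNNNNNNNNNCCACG, searched on both strands. The region of Hspa8 is chr8:50080264-50080563 (plus strand), that of Hsph1 is chr12:10427118-10427417 (plus strand), that of Hspb1 is chr12:26432252-26432551 (minus strand) and that of Hspa5 is chr3:38452766-38453065 (plus strand).
Hspa8: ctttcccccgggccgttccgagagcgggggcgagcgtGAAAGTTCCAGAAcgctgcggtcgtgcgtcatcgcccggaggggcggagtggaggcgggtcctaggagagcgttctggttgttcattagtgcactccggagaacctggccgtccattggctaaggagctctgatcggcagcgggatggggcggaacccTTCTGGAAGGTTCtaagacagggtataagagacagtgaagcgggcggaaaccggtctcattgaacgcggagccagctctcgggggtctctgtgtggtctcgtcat
Hsph1: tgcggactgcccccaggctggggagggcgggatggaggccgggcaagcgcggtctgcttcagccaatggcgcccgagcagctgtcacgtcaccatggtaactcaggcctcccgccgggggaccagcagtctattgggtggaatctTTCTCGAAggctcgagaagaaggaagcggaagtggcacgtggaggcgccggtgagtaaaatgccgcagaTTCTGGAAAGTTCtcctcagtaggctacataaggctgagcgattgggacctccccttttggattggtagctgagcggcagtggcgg
Hspb1: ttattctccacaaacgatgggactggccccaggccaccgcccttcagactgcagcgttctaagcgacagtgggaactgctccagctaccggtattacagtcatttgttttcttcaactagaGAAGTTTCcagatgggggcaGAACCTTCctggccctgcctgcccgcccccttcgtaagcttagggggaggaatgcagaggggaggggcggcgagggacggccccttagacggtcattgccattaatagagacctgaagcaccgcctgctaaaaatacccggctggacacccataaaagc
Hspa5: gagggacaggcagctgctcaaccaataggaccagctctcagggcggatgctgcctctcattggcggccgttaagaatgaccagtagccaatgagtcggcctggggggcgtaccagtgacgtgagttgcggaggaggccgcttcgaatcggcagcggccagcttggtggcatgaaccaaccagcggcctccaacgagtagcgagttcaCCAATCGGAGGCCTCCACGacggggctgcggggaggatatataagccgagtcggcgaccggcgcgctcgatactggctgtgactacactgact
Promoters of 7 of the 9 genes were in the RefSeq table, and Cryab and Hsp90aa1 are named only. A head-to-head pair of heat shock units (GAANNTTC) stood in 5 of the 7, those of Hspa8, Hsph1, Hspb1, Hspb8 and Dnajb1, against 8.34% of 27457 rat promoters of the same length. The 3-unit form GAANNTTCNNGAA, which overlaps the shorter motifs, stood in those of Hspa8 and Hsph1, against 0.736% of all promoters. In the promoter of Hspa8 the 3-unit matches begin at positions -213 and -55, counted from the annotated start, and in that of Hsph1 the match begins at -36. The ER stress element stood in the promoter of Hspa5, where it begins at -43, against 0.0765% of all promoters. The promoter of Hsp90ab1 holds none of these motifs. A match describes the letters of this window and no binding of a factor.

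No member passed the test between the groups. By the quasi-likelihood test of edgeR with Benjamini-Hochberg adjustment, 0 of the 9 members were called, each at an adjusted p of 1.0, and 0% of the 13999 genes tested in either direction. None of the 9 had an unadjusted p under 0.05, against 1.72% of all genes tested, and DESeq2 called none of them, against 0.0786% of all genes. The libraries of the groups overlapped for each of the 9 members, where 5.69% of all genes tested had no overlap. Of the members, 4 had a positive and 5 a negative log2 fold change (GDNF-Gel/HA-Mg over NC), with a median of -0.14, while 47.0% of all genes tested were positive with a median of -0.01. The 95% interval of the fold change lay within 2-fold in either direction for 6 members and reached past it for Hspb1, Hspb8 and Cryab.

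**Figure D1:**
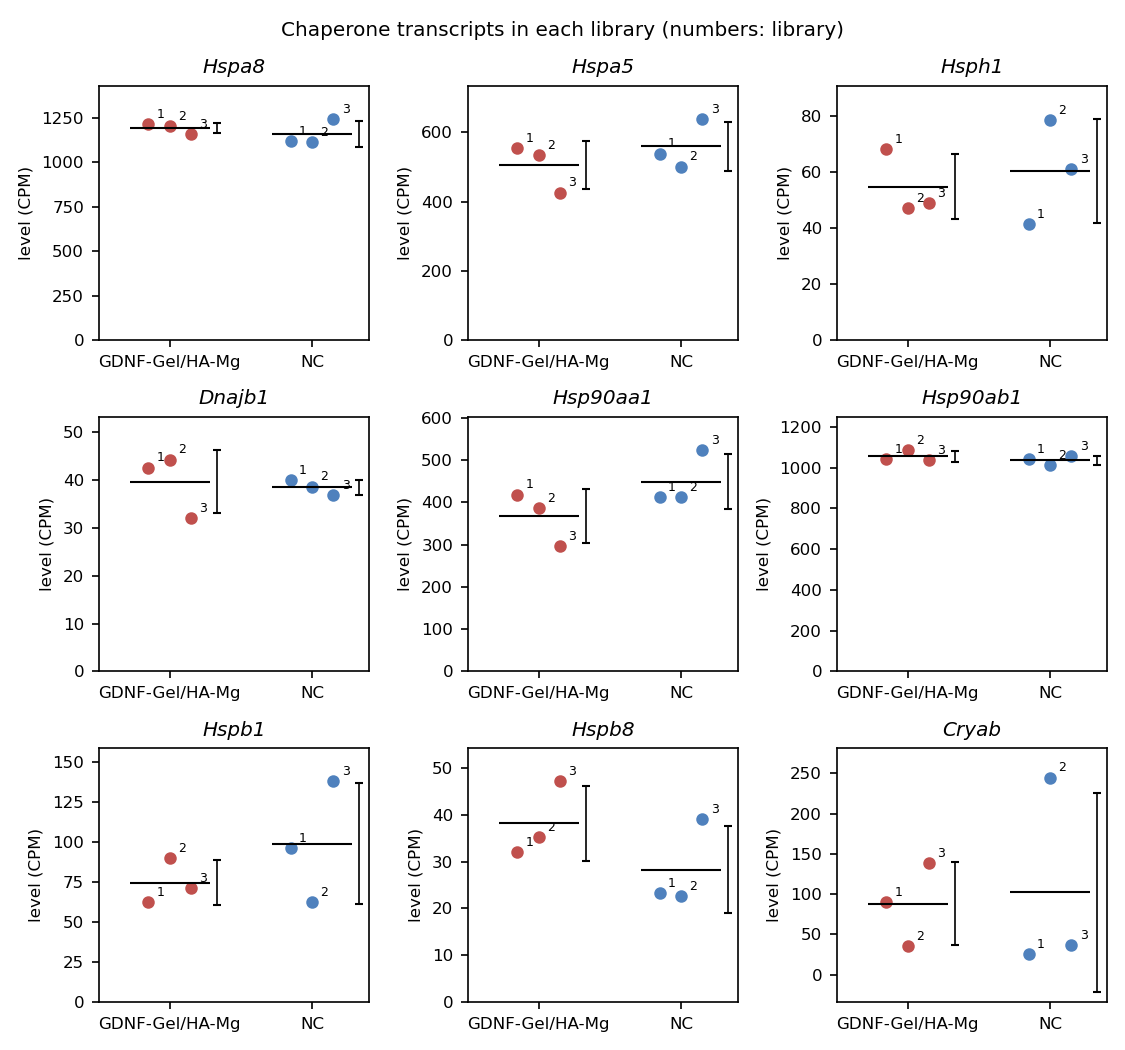
Level of each transcript (y axis, CPM, counts scaled to library size) in the 3 GDNF-Gel/HA-Mg libraries (red, left) and the 3 NC libraries (blue, right) of each panel, with the library number beside each point, the group mean as a line and the SD as a bar. The points of Hsp90ab1 and Hspa8 lie almost level, while those of Cryab spread from 25.3 CPM in NC 1 to 245 CPM in NC 2.

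Haemoglobin took 8.08% to 14.8% of the counts in the GDNF-Gel/HA-Mg libraries and 1.02% to 25.2% in the NC libraries. Total counts per library ran between 16120518 and 18491379 in the GDNF-Gel/HA-Mg group and between 15897850 and 17990057 in the NC group. All 8 markers of the Schwann lineage were detected in every library, with a summed level of 1108 to 2156 CPM in the GDNF-Gel/HA-Mg group and 826 to 3736 CPM in the NC group. All 10 markers of myelinating Schwann cells were also detected in every library, and their summed level spanned 38.0-fold over the 6 libraries. The summed level of skeletal muscle markers, 13 of 14 of them above 0 in every library, spanned 84.3-fold. In such bulk tissue, fewer cells of a type and less RNA per cell cannot be told apart.

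Hspa8 (ENSRNOG00000034066) encodes HSC70, the HSP70 that cells make at all times and that also strips clathrin from vesicles. Hspa8 measured 1212 CPM in implant 1, 1202 in implant 2 and 1158 in implant 3, against 1117 CPM in NC 1, 1112 in NC 2 and 1241 in NC 3. CPM are counts scaled to library size and not to transcript length, so levels are compared between libraries and never between genes. The NC group held both the lowest and the highest library, which differed 1.12-fold, and 159 of the 13999 genes tested had a narrower range. Over the plain total count the libraries differed 1.37-fold, and 1049 genes had a narrower range. The log2 fold change was 0.04 ± 0.16 (SE, n = 3 per group; edgeR adjusted p 1.0), with a 95% interval of 0.789-fold to 1.34-fold. A second entry with the symbol Hspa8 held 5.94 to 9.53 estimated counts in the GDNF-Gel/HA-Mg libraries and 5.55 to 12.25 in the NC libraries and was not tested. Most values of both entries are not whole, and how reads that fit several near-identical copies were divided is not stated, so the level of Hspa8 is uncertain to that extent.

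Hspa5 (ENSRNOG00000018294) encodes BiP, the HSP70 of the ER lumen, which also holds the sensors of the unfolded protein response inactive. Hspa5 measured 555 CPM in implant 1, 535 in implant 2 and 426 in implant 3, against 539 CPM in NC 1, 501 in NC 2 and 638 in NC 3. Implant 3 was the lowest and NC 3 the highest library, 1.50-fold apart, and the other 4 lay between 501 and 555 CPM. The log2 fold change was -0.15 ± 0.18 (SE; edgeR adjusted p 1.0). It was -0.04 without implant 3 and also -0.04 without NC 3, and -0.22 without NC 2.

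Hsph1 (ENSRNOG00000000902) encodes HSP105, a large relative of HSP70 that acts as its nucleotide exchange factor. Hsph1 measured 68.2 CPM in implant 1, 47.2 in implant 2 and 49.1 in implant 3, against 41.6 CPM in NC 1, 78.6 in NC 2 and 61.3 in NC 3. NC 2 and implant 1, the highest libraries, both had high myelin markers, but implant 3, with the second highest summed myelin markers, had a low level of Hsph1. Between the groups Hsph1 had a log2 fold change of -0.14 ± 0.27 (SE; edgeR adjusted p 1.0), and its sign turned without NC 2 (0.09).

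Dnajb1 (ENSRNOG00000021824) encodes HSP40, a J-domain partner that speeds the ATP cycle of HSP70 and is induced by heat. Dnajb1 measured 42.6 CPM in implant 1, 44.2 in implant 2 and 32.1 in implant 3, against 39.9 CPM in NC 1, 38.6 in NC 2 and 36.9 in NC 3. The GDNF-Gel/HA-Mg group held the highest and the lowest library, 1.38-fold apart, with the NC libraries between them. Between the groups Dnajb1 had a log2 fold change of 0.04 ± 0.15 (SE; edgeR adjusted p 1.0), and its sign turned without implant 2 (-0.04).

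Hsp90aa1 (ENSRNOG00000059714) encodes the stress-inducible cytosolic HSP90. Hsp90aa1 measured 418 CPM in implant 1, 387 in implant 2 and 296 in implant 3, against 411 CPM in NC 1, 413 in NC 2 and 523 in NC 3. Implant 3 was lowest and NC 3 highest, the same extremes as for Hspa5, and implant 1 lay above NC 1 and NC 2. The log2 fold change was -0.29 ± 0.19 (SE; edgeR adjusted p 1.0), and leaving out implant 3 brought it to -0.16 and leaving out NC 3 to -0.17. In implant 3 the fibroblast markers had their lowest summed level (14115 CPM, against 17506 to 22430 CPM in the NC libraries) and the skeletal muscle markers their highest (8652 CPM, against 103 to 1435 CPM in the NC libraries). Their part in the levels of Hspa5 and Hsp90aa1 was not tested. The symbol Hsp90aa1 covers 3 entries, of which 1 had counts of 0 in all 6 libraries and 1 had 3.06 estimated counts in implant 2 and 0 elsewhere.

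Hsp90ab1 (ENSRNOG00000019834) encodes the cytosolic HSP90 that is made at all times. Hsp90ab1 measured 1043 CPM in implant 1, 1085 in implant 2 and 1036 in implant 3, against 1041 CPM in NC 1, 1012 in NC 2 and 1055 in NC 3. The libraries differed by 1.07-fold at most, and 24 of the 13999 genes tested had a narrower range. With CPM over the total count without haemoglobin the range was 1.14-fold, and 228 genes had a narrower one. Over the plain total count it was 1.51-fold, and 2483 genes had a narrower one. The log2 fold change was 0.03 ± 0.15 (SE; edgeR adjusted p 1.0), with a 95% interval of 0.792-fold to 1.31-fold. Its values are also not whole in any library, and a second entry of the same symbol had 0 counts throughout.

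**Figure D2:**
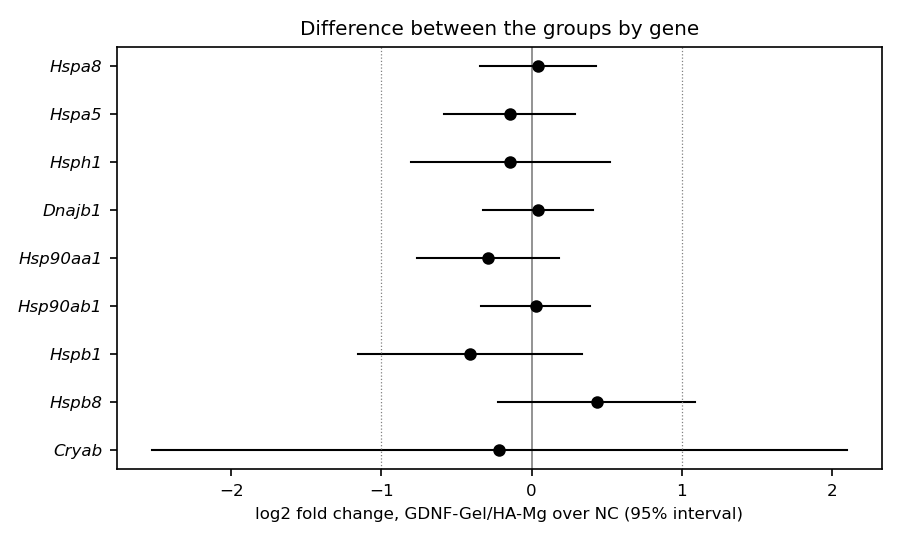
Log2 fold change of GDNF-Gel/HA-Mg over NC (x axis) for each gene (y axis), with its 95% interval as a line and dotted lines at a 2-fold change in either direction. All 9 intervals cover 0, and that of Cryab, from -2.53 to 2.10, is the widest of the 9.

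The 3 small heat shock proteins had the widest ranges of the members over the 6 libraries, 9.65-fold for Cryab, 2.21-fold for Hspb1 and 2.08-fold for Hspb8, followed by Hsph1 at 1.89-fold. Over the plain total count the range of Hspb1 (1.71-fold) was narrower than that of Hsph1 (1.82-fold). Hspb1 (ENSRNOG00000023546) encodes HSP27 (HSP25 in rodents), which guards the actin cytoskeleton and is induced in neurons after nerve injury. Hspb1 measured 62.4 CPM in implant 1, 89.8 in implant 2 and 71.0 in implant 3, against 96.3 CPM in NC 1, 62.7 in NC 2 and 137.8 in NC 3. The 3 lowest libraries, implant 1, NC 2 and implant 3, were the 3 with the highest summed level of myelin markers and of Schwann lineage markers. NC 3, the highest, also had the highest summed levels of red cell, adipocyte, macrophage and endothelial markers (332764, 8057, 2065 and 1761 CPM). The part of these cell types in the level of Hspb1 was not tested. Between the groups Hspb1 had a log2 fold change of -0.41 ± 0.31 (SE; edgeR adjusted p 1.0), and it was -0.10 without NC 3, -0.65 without NC 2 and -0.67 with haemoglobin level as a covariate.

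Hspb8 (ENSRNOG00000022392) encodes HSP22, which works with the cochaperone BAG3 to send misfolded proteins to autophagy and is abundant in muscle. Hspb8 measured 32.1 CPM in implant 1, 35.2 in implant 2 and 47.1 in implant 3, against 23.2 CPM in NC 1, 22.6 in NC 2 and 39.0 in NC 3. The GDNF-Gel/HA-Mg libraries were all above NC 1 and NC 2, while NC 3 lay above implant 1 and implant 2. Between the groups Hspb8 had a log2 fold change of 0.43 ± 0.27 (SE; edgeR adjusted p 1.0), 0.73 without NC 3 and 0.25 without implant 3. Summed red cell markers measured 77253 CPM in implant 1, 131210 in implant 2 and 157257 in implant 3, against 10336 CPM in NC 1, 9574 in NC 2 and 332764 in NC 3, which is the same order of libraries as for Hspb8 except for implant 3 and NC 3 at the top. With haemoglobin level as a covariate the log2 fold change of Hspb8 was 0.17. Summed skeletal muscle markers, like Hspb8, were highest in implant 3. They were lowest in NC 1, while Hspb8 was lowest in NC 2. Their sum in implant 1, at 184 CPM, was below that in NC 2, at 470 CPM. Both sums varied far more than Hspb8, and of the 10 marker sums those of macrophages and endothelial cells differed least from it over the libraries (root mean square differences of 0.26 and 0.31 in centred log2 level, against 1.61 for red cells and 1.85 for skeletal muscle). Macrophage markers summed to 1088 CPM in implant 1, 1448 in implant 2 and 1603 in implant 3, against 1216 CPM in NC 1, 1011 in NC 2 and 2065 in NC 3. They were highest in the same 3 libraries as Hspb8, and so were the red cell, skeletal muscle and neutrophil sums. Neutrophil markers summed to 352 CPM in implant 2, 260 in implant 3 and 323 in NC 3. Their sums were 193 CPM in implant 1, 66.4 in NC 1 and 44.4 in NC 2. The macrophage and endothelial sums were also the nearest of the 10 to Hspb1 (0.25 and 0.27). The part of these cell types in the level of Hspb8 was not tested.

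Cryab (ENSRNOG00000010524) encodes alpha B-crystallin, a small heat shock protein of lens, muscle and glia. Cryab measured 90.0 CPM in implant 1, 36.0 in implant 2 and 139 in implant 3, against 25.3 CPM in NC 1, 245 in NC 2 and 37.2 in NC 3. The libraries spanned 9.65-fold, and 94.6% of the genes tested had a narrower range. Implant 1, implant 3 and NC 2 formed the high set, and implant 2, NC 1 and NC 3 the low set, so each group held libraries of both kinds. Between the groups Cryab had a log2 fold change of -0.21 ± 0.95 (SE; edgeR adjusted p 1.0), with a 95% interval of 0.173-fold to 4.29-fold.

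Summed myelin markers measured 15915 CPM in implant 1, 1015 in implant 2 and 19440 in implant 3, against 1078 CPM in NC 1, 38619 in NC 2 and 2658 in NC 3. This is the order of the libraries for Cryab as well, except that implant 2 and NC 1, the lowest for both, changed places. Cryab followed with a smaller amplitude, since the marker sum spanned 38.0-fold and Cryab 9.65-fold. Summed Schwann lineage markers were also high in implant 1, implant 3 and NC 2 (2156, 2133 and 3736 CPM). They were lower in implant 2, NC 1 and NC 3 (1108, 1393 and 826 CPM). The Schwann lineage sum differed less from Cryab than the myelin sum did (root mean square differences of 0.63 and 1.00 in centred log2 level). With the myelin sum as a covariate, an alternative chosen after seeing the data, the log2 fold change of Cryab was 0.06 ± 0.28 (SE; edgeR adjusted p 1.0). Without NC 2 it was 1.50 (edgeR adjusted p 0.963), without implant 2 it was 0.18, and without implant 3, NC 1 or NC 3 it was -0.70, -0.65 or -0.60. Skeletal muscle also makes Cryab. Summed muscle markers were highest in implant 3 (8652 CPM), the second highest library for Cryab, while NC 2, the highest for Cryab, had 470 CPM and NC 3, one of the low set, had 1435 CPM. The part of Schwann cells, myelin and muscle in the level of Cryab between the groups was not tested beyond the myelin covariate. Hspb2, whose gene lies next to Cryab and overlaps it in the RefSeq annotation of GRCr8, measured 8.66 CPM in implant 1, 5.87 in implant 2 and 10.1 in implant 3, against 5.56 CPM in NC 1, 14.0 in NC 2 and 7.01 in NC 3. Because the library kit keeps no strand, reads from the stretch they share cannot be told apart.

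**Figure D3:**
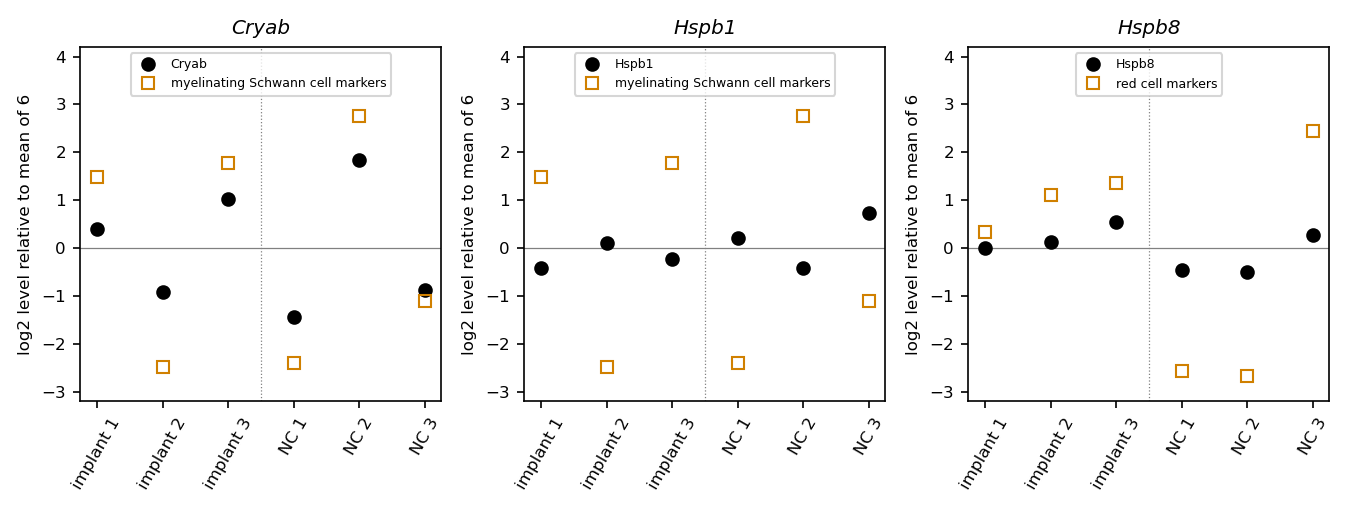
Log2 level relative to the mean of the 6 libraries (y axis) in each library (x axis, GDNF-Gel/HA-Mg left of the dotted line, NC right) for a gene (filled) and the summed level of a marker list (open squares). Cryab lies on the same side of 0 as the myelin markers in all 6 libraries, Hspb1 lies on the opposite side in 6 of 6, and Hspb8 was low in NC 1 and NC 2, as were the red cell markers.

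Ratios of 2 members within a library do not depend on how libraries are scaled, and their absolute size is not read because transcript lengths differ. Of the 36 ratios, 5 (13.9%) had no overlap between the groups, where 5.5% of all pairs of tested genes had none. The ratios share genes, and 4 of the 5 contain Hsp90aa1. The ratio of Hspb8 to Hspb1 was 0.514 in implant 1, 0.392 in implant 2 and 0.663 in implant 3, against 0.241 in NC 1, 0.361 in NC 2 and 0.283 in NC 3. It averaged 0.523 ± 0.136 in the GDNF-Gel/HA-Mg group and 0.295 ± 0.0607 in the NC group (SD, n = 3 each), a log2 difference of 0.81 (two-sided exact permutation p 0.1, the smallest that 3 against 3 allow, and 0.72 adjusted over the 36 ratios).

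The ratio of Hsp90aa1 to Hspa8 was 0.345 in implant 1, 0.322 in implant 2 and 0.256 in implant 3, against 0.368 in NC 1, 0.371 in NC 2 and 0.422 in NC 3. Relative to Hspa8, Hsp90aa1 was thus lower in every GDNF-Gel/HA-Mg library than in every NC library, by a log2 difference of -0.34. Hspa5, Dnajb1 and Hspb8 were each higher relative to Hsp90aa1 in all 3 GDNF-Gel/HA-Mg libraries than in the NC libraries, with log2 differences of 0.15, 0.33 and 0.76. For Hspa5 over Hsp90aa1 the values were 1.33 in implant 1, 1.38 in implant 2 and 1.44 in implant 3, against 1.31 in NC 1, 1.21 in NC 2 and 1.22 in NC 3, so the nearest libraries of the groups almost touch. All of these have a two-sided exact permutation p of 0.1 and 0.72 after adjustment (n = 3 each), which does not pass.

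**Figure D4:**
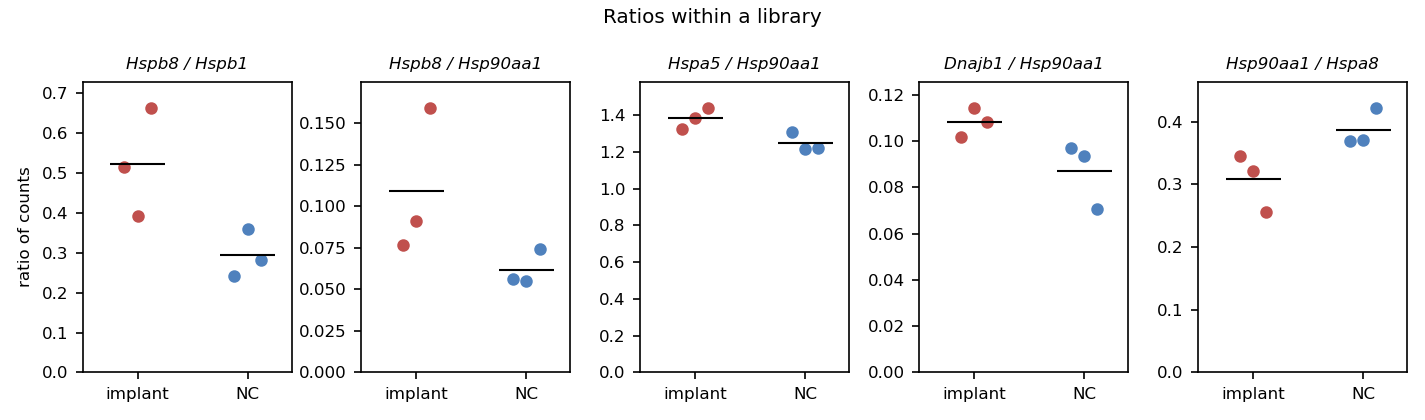
Ratio of the counts of 2 genes within a library (y axis, starting at 0) for the 5 of 36 ratios whose groups do not overlap, with the GDNF-Gel/HA-Mg libraries in red on the left (implant) and the NC libraries in blue on the right, and group means as lines. The highest NC ratio of Hspb8 to Hspb1, 0.361, lies just under the lowest with the implant, 0.392.

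The pattern over the libraries was compared between genes as the root mean square difference of log2 CPM after each gene was centred on its mean, over 6 libraries and 7899 genes with a symbol and a mean log2 CPM of at least 4. Nearest to Cryab were Gatm, the first enzyme of creatine synthesis (0.13 log2 units), and the Eph receptor gene Ephb6 (0.14). Gatm measured 111 CPM in implant 1, 36.4 in implant 2 and 162 in implant 3, against 28.7 CPM in NC 1, 257 in NC 2 and 35.3 in NC 3. Nearest to Hspb1 were Dse, which encodes an epimerase of dermatan sulfate, and Tbc1d4, a regulator of glucose transporter traffic (0.08 each), and nearest to Hspb8 were Serpinb1a, an inhibitor of neutrophil proteases (0.08), and the leukocyte ligand gene Selplg (0.11). Serpinb1a measured 45.4 CPM in implant 1, 55.8 in implant 2 and 68.9 in implant 3, against 36.5 CPM in NC 1, 35.0 in NC 2 and 53.6 in NC 3. Nearest to Hspa5 were Fbln5, a gene of elastic fibres (0.03), and Gtf2f2 (0.04), and nearest to Hsp90aa1 were Ubxn8 (0.04) and Trappc1 (0.05). For Hsph1 they were Pard6g and Gpc4 (0.10 each), and for Dnajb1 Spcs1 and Sqor (0.04 each). Hspa8 lay nearest to Eml4 and Raver1 (0.02 each), and Hsp90ab1 to Tor1aip1 (0.01) and Maz (0.02). With many genes and few libraries such near matches describe these libraries only.

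Within the family, Hspa5 and Hsp90aa1 were 0.09 log2 units apart by this measure and Hspa8 and Hsp90ab1 0.05, with the second pair nearly flat over all libraries. Cryab was at least 0.98 from every other member, with Hsph1 nearest and Hspb1 farthest (1.50). Among 80 other chaperone genes that met the same level, the nearest to Cryab was Hspa12a at 0.55, a distant HSP70 relative, while that nearest to Hspb8 was Dnajb5 (0.12) and that nearest to Hspb1 was the endothelial Hspa12b (0.21). The ER protein disulfide isomerase gene Pdia6 was nearest to both Hspa5 (0.07) and Hsp90aa1 (0.10), and its relative Pdia3 to Dnajb1 (0.07). For Hspa8 it was the chaperonin subunit gene Cct7 (0.02), for Hsp90ab1 the ubiquitin ligase gene Stub1 (0.04) and for Hsph1 Ppp1r15a (0.20).

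Other chaperones and their partners were examined in 8 lists that name 100 genes; the table held 98 of these and 95 could be tested. The edgeR test called 0 of the 95, 1 had an unadjusted p under 0.05 and 2 had no overlap between the groups, against 0%, 1.72% and 5.69% of all genes tested. Of the 95, 27 had a positive and 68 a negative log2 fold change, with a median of -0.05, where 47.0% of all genes were positive with a median of -0.01. With 1 library left out, this lean to the negative side turned only without NC 3, where 51 were positive and 44 negative, with a median of 0.01. It was smaller without implant 3, with 40 positive and 55 negative and a median of -0.02.

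Among other HSP70 and HSP110 genes, 3 of 11 were positive and 8 negative (median -0.11). Hspa1a, the heat-inducible HSP70, measured 44.0 CPM in implant 1, 27.4 in implant 2 and 44.3 in implant 3, against 32.2 CPM in NC 1, 53.4 in NC 2 and 77.9 in NC 3. No entry carried the symbol of its near-identical copy Hspa1b, so that gene was not analysed here. Since the values of Hspa1a are partly not whole, the level of Hspa1a is uncertain. The ER exchange factor gene Hyou1 had a log2 fold change of -0.16 ± 0.12 (SE). The 2 other HSP90 genes, Hsp90b1 of the ER and Trap1 of mitochondria, had log2 fold changes of -0.12 ± 0.17 and -0.06 ± 0.20 (SE). Of 10 chaperonin genes 1 was positive (median -0.05), with Hspd1, the mitochondrial HSP60, at -0.25 ± 0.21 and Cct5, a subunit of the cytosolic ring, at -0.10 ± 0.13 (SE).

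Of 19 other J-domain genes, 7 were positive and 12 negative (median -0.01). Dnajb5 was the gene with an unadjusted p under 0.05 (edgeR unadjusted p 0.0422, adjusted p 1.0). It measured 17.2 CPM in implant 1, 19.1 in implant 2 and 21.8 in implant 3, against 12.4 CPM in NC 1, 11.7 in NC 2 and 17.1 in NC 3, with implant 1 just above NC 3. Dnajc7, which bridges HSP70 and HSP90, had a log2 fold change of -0.13 ± 0.12 (SE). Among 19 tested cochaperones, 5 were positive and 14 negative (median -0.05). Bag4, a regulator of HSP70 release, measured 31.4 CPM in implant 1, 34.9 in implant 2 and 34.9 in implant 3, against 38.7 CPM in NC 1, 40.7 in NC 2 and 63.9 in NC 3, with no overlap and NC 3 far above the rest (edgeR adjusted p 1.0). Fkbp5, a glucocorticoid-responsive partner of HSP90, measured 41.9 CPM in implant 1, 47.5 in implant 2 and 36.6 in implant 3, against 37.7 CPM in NC 1, 23.4 in NC 2 and 31.2 in NC 3, where NC 1 lay above implant 3.

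Of the other small heat shock protein genes 4 were tested, 3 of them positive (median 0.47, 0.07 without implant 3 and 0.73 without implant 1). Hspb7, a gene of heart and skeletal muscle, measured 3.69 CPM in implant 1, 7.28 in implant 2 and 7.31 in implant 3, against 3.22 CPM in NC 1, 4.57 in NC 2 and 4.12 in NC 3. Hspb6, which is abundant in muscle, measured 8.55 CPM in implant 1, 15.1 in implant 2 and 16.7 in implant 3, against 8.98 CPM in NC 1, 10.6 in NC 2 and 12.7 in NC 3. Both were high in implant 2 and implant 3, where summed skeletal muscle markers stood at 1828 and 8652 CPM. They were low in implant 1 (184 CPM) and NC 1 (103 CPM). In NC 2 and NC 3, with muscle sums of 470 and 1435 CPM, both genes lay between these levels. Hspb7 did not follow the muscle sum throughout, since it was lower in NC 3 than in NC 2 and almost equal in implant 2 and implant 3. The part of muscle in these levels was not tested.

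The heat shock factors and other heat-inducible genes had 3 positive and 4 negative members (median -0.11, but 0.12 without NC 3 and 0.05 without implant 3). Hsf2 had a log2 fold change of -0.19 ± 0.15 (SE). Hmox1, the haem oxygenase induced by haem, measured 16.7 CPM in implant 1, 17.8 in implant 2 and 19.1 in implant 3, against 15.3 CPM in NC 1, 14.7 in NC 2 and 39.0 in NC 3. The high library was NC 3. Haemoglobin took 8.08%, 12.9% and 14.8% of the counts in implant 1, implant 2 and implant 3, against 1.19%, 1.02% and 25.2% in NC 1, NC 2 and NC 3, and its part in the level of Hmox1 was not tested. Of 23 ER chaperone and unfolded protein response genes, 5 were positive and 18 negative (median -0.07), and without NC 3 they were 12 and 11 (median 0.02). Atf4, a translationally controlled factor of this response, had a log2 fold change of -0.18 ± 0.13 and Ppp1r15a, which ends the block of translation, one of -0.24 ± 0.22 (SE; edgeR adjusted p 1.0 for both).

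**Figure D5:**
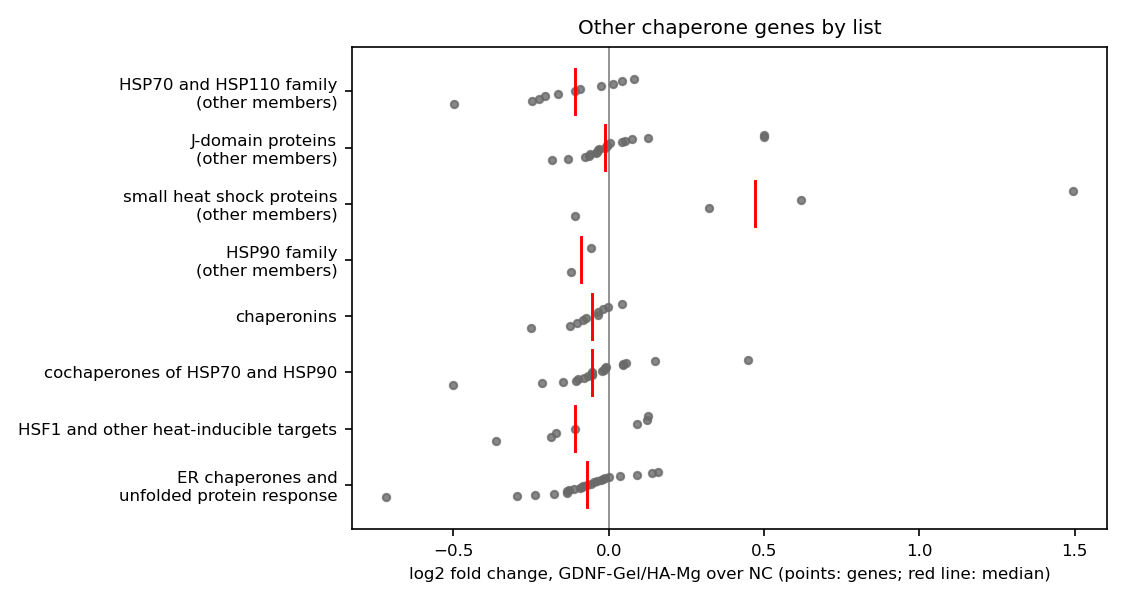
Log2 fold change of GDNF-Gel/HA-Mg over NC (x axis) of each tested gene (points) in the 8 lists of other chaperone genes (y axis), with the list median in red. Medians of 7 lists lie between -0.11 and -0.01, and that of the 4 small heat shock protein genes is 0.47.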

How the data were processed

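Polyadenylated RNA was made into libraries with a NEBNext Ultra RNA kit, per the labels' protocols. Per the submitters' processing notes, the tools included HISAT2, Bowtie2 (2.2.8), DESeq2 and StringTie (1.3.1), without their roles. Counter, build and annotation: not given in the sources used here. In their table the authors deposited estimated counts (expected counts) per gene, not normalized as far as the column totals show, with 1898 to 2085 values per library that are not whole. These were rounded. Columns were matched to samples by name, with the column prefix Con taken as NC and Gel_HA-Mg, which leaves out GDNF, as GDNF-Gel/HA-Mg. No pair of libraries agreed within sampling noise by chi-square of their counts.

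Genes were filtered with filterByExpr (13999 kept), scaled by TMM and tested with edgeR 4.0.16 under R 4.3.3 (quasi-likelihood, two-sided, group as the only term, Benjamini-Hochberg over all genes, called under 0.05). The SE is the log2 fold change over the root of F, and intervals from it are approximate. Where a symbol had several entries, that with the highest total was used. Log2 CPM used a prior count of 2. DESeq2 1.42.0, limma 3.58.1, other scalings, filters, covariates and each library left out were alternatives. Figures used matplotlib 3.10.9. Members and lists were chosen with earlier results of these data known. Named were all members, the 2 genes per list with the smallest unadjusted p, the 2 nearest in pattern to each member and the nearest within the lists. The rule also names 2 markers per list, which are given here only within their sums. Genes named outside it are Hspb2, Hspb3, Hspb9, St13 and Unc45b, chosen after their values were seen, and Hspa1b, which had no entry.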

Additional observations from a re-analysis of the deposited data

How the results depend on the processing

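No member was called under any of the 16 alternatives, and the lowest adjusted p was 0.529 (Hspb1, edgeR with haemoglobin as a covariate). DESeq2 called 11 genes over all genes, 5 higher and 6 lower with the implant, none of them a member or in the other chaperone lists, and every other alternative called 0. Hspa5, Hsp90aa1, Hsp90ab1, Hspb1 and Hspb8 kept their sign throughout. The log2 fold change of Cryab turned to 0.32 with limma-voom, 0.69 with the haemoglobin covariate and 0.058 with the myelin covariate, and the cause was not tested. That of Hspa8 was -0.0085 with the haemoglobin covariate. With 1 library left out the values ran from -0.70 to 1.50 for Cryab, -0.34 to 0.091 for Hsph1 and -0.040 to 0.17 for Dnajb1.

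The labels do not say that the replicate numbers pair the libraries. Same-numbered deviations correlated at 0.099, -0.718 and 0.055, and different-numbered ones at -0.607 to 0.517. These values cannot decide whether libraries are paired, since both kinds vary widely. With the number as a replicate block the log2 fold change of Cryab was 0.60 and 0 genes were called. With 3 libraries a group, the spread of Cryab leaves a 4-fold change in either direction within its interval.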

Other observations

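Chaperones that were not tested are given as counts. Unc45b, which folds myosin in striated muscle, had 1, 19 and 78 counts in implant 1, implant 2 and implant 3, against 0, 3 and 8 in NC 1, NC 2 and NC 3, and was too low to be tested. Within each group its order is that of the summed skeletal muscle markers, which measured 184 CPM in implant 1, 1828 in implant 2 and 8652 in implant 3, against 103 CPM in NC 1, 470 in NC 2 and 1435 in NC 3. The muscle small heat shock protein gene Hspb3 was tested and measured 0 CPM in implant 1, 0.869 in implant 2 and 2.83 in implant 3, against 0 CPM in NC 1, 0.405 in NC 2 and 0.940 in NC 3, again in the order of the muscle markers within each group. Hspb9, a small heat shock protein gene of testis, had 4, 1 and 1 counts in implant 1, implant 2 and implant 3 and 0 in each NC library. St13, a cochaperone of HSP70, is listed at 0 in all 6 libraries.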
